A study of Mus musculus with 6 samples.

Results

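The heavy chain variable genes (Ighv, or VH genes) were followed in RNA of mouse splenic B-cells that lacked the 3′ regulatory region (3′RR), lacked the Eμ enhancer, or carried an intact immunoglobulin heavy chain (IgH) locus. The members are the 183 names of the deposited count table that start with Ighv, out of 46963 gene names, and the first number of a name gives its subfamily. Ighv1 is the largest subfamily, with 92 names, followed by Ighv5 with 21, Ighv8 with 16 and Ighv2 with 11, and the other 12 subfamilies hold between 1 and 8 names each. The annotation (mm10, GRCm38) places all 183 on chromosome 12, minus strand, between 113572927 and 116010093, and classes 113 of them as V genes and 70 as V pseudogenes. No count was found in any library for 46 of the names.

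Total RNA of CD43-depleted spleen cells, a preparation of resting B-cells, was sequenced from wt, EμMAR-deficient (here Eμ-deficient) and 3′RR-deficient mice, all adult mice of both sexes on a 129 background. Each genotype gave 1 library of non-stimulated cells and 1 library of cells stimulated for 2 days with 5 μg per ml of lipopolysaccharide (LPS), a bacterial product that activates B-cells, so that there were 6 libraries and no replicate of any group. According to the labels each library is a pool of 2 mice, and both states were cultured for 2 days, whereas the methods describe the resting cells as taken before stimulation and give a larger number of mice. The labels also give the LPS dose in mg per ml in a protocol text, and the dose printed here is that of the treatment label.

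During B-cell development, V(D)J recombination joins 1 VH gene to a DH and a JH gene, and from then on the promoter of the chosen VH gene drives the μ mRNA of that cell. The reads that fall on each VH gene therefore follow both how many cells chose that gene and how much heavy chain mRNA those cells contain. The Eμ enhancer, between the JH genes and Cμ, is known for its role in recombination, and the 3′RR, downstream of the last constant gene, for its role in heavy chain transcription of mature B-cells. In bulk RNA, fewer cells that use a gene and less RNA per cell cannot be told apart. A share of the Ighv counts, in percent, compares the genes with one another within a library, and CPM, in which library sizes are adjusted by the TMM factors of edgeR, compares 1 gene across libraries.

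The sequences below are the 3′ ends of the annotated transcripts (GENCODE M21, GRCm38, minus strand) of the genes on which the results turn. They show what the reads had to distinguish, since VH genes differ from one another by a limited number of bases. Each is 75 bases long and runs 5′ to 3′ into the junction with DH, and the capitals mark the codons for tyrosine, tyrosine or phenylalanine, and cysteine that close framework region 3.
Ighv7-3 (chr12:114153180-114153644), the gene with the largest rise in Eμ-deficient B-cells: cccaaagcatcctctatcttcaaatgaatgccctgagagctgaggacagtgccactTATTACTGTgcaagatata
Ighv9-3 (chr12:114140692-114141122), the leading gene of wt B-cells: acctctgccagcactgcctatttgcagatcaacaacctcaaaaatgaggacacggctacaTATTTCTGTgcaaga
Ighv2-9 (chr12:113879096-113879541), the leading gene of 3′RR-deficient B-cells after LPS: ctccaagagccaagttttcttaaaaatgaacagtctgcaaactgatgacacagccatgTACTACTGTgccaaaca
Ighv2-9-1 (chr12:113769850-113770302), nearly absent from both mutants: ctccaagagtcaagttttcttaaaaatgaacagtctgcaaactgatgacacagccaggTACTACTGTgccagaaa
Ighv6-6 (chr12:114434788-114435244), lower in Eμ-deficient B-cells: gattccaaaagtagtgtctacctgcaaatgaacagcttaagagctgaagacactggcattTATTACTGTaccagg
Ighv4-1 (chr12:113948282-113948796), lower in 3′RR-deficient B-cells: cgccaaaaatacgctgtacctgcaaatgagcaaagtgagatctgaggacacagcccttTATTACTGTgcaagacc
Ighv14-1 (chr12:113931953-113932382), at wt level in 3′RR-deficient B-cells: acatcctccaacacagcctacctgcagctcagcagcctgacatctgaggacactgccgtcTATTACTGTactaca
Ighv1-62-2 (chr12:115446409-115446869), whose printed end is also that of Ighv1-71: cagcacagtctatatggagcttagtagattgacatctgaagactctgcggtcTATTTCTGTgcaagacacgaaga
Ighv11-2 (chr12:114048241-114048812), higher in resting 3′RR-deficient B-cells: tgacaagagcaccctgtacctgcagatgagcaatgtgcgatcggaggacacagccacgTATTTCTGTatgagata

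Over whole transcripts, the median identity of 2 names was 57.8% between subfamilies and ranged from 64.1% in Ighv6 to 98.9% in Ighv11 within them. The end printed for Ighv9-3 is also that of Ighv9-2, the end of Ighv4-1 is that of Ighv4-2, and the end of Ighv14-1 is that of Ighv14-4. Because reads that map to several places were counted, near-identical names can exchange reads, and every stretch of 100 bases of Ighv1-62-2, and 78.1% of those of Ighv1-71, is shared with another name. In all, 48 names share at least 1 stretch of 100 bases with another name, among them 28 of the 93 names that had enough counts for the model used below. Ighv7-3, Ighv9-3, Ighv2-9, Ighv6-6 and Ighv14-1 share no such stretch, and the closest name to Ighv7-3 is Ighv7-4, at 92.6% identity. Stretches shared with another name made up between 1.71% and 4.38% of the Ighv counts when each name's counts were weighted by its shared part.

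The genes received between 9111974 counts (LPS-stimulated 3′RR-deficient) and 21998587 counts (LPS-stimulated wt) per library, of which between 2703 and 32210 fell on Ighv names. For a count of 0, the interval of the share of the Ighv counts reached 0.0354% in resting wt and 0.136% in 3′RR-deficient B-cells after LPS. Intervals are 95% intervals and cover counting error only. The B-cell markers Cd79a, Cd79b and Ms4a1 were at 237 to 585, 198 to 396 and 260 to 583 CPM over the 6 libraries, whereas markers of precursor B-cells reached at most 1.60 CPM, with Rag2, Igll1 and Vpreb2 at 0 throughout. Added spike-in RNAs, which should not change, had an SD of the log2 ratio to wt of 0.157 in the resting 3′RR-deficient library, between 0.440 and 0.477 in the Eμ-deficient libraries and of 1.27 in 3′RR-deficient B-cells after LPS, the library that was also the shallowest. In that library, 12 of 88 Ighv names lay below the range of the spike-ins, against 74 below and 2 above it of 79 in the resting 3′RR-deficient library.

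In resting wt B-cells the Ighv RNA was spread over many genes. Ighv9-3, of the small Ighv9 subfamily, led with 6.12% (95% interval 5.67 to 6.60%) of the Ighv counts, followed by Ighv1-67 with 5.02%, Ighv2-9 with 4.68%, Ighv4-1 with 4.65% and Ighv2-2 with 4.4%. The intervals of the 4 names from Ighv1-67 to Ighv2-2 overlapped, so that their order is not resolved. By subfamily, Ighv1 took 28.1% of the counts, Ighv2 16.7%, Ighv5 13.4%, Ighv9 9.75% and Ighv3 7.89%. Ighv2 and Ighv5 together hold 32 names against the 92 of Ighv1, yet their summed share was about as large as that of Ighv1. The shares are not divided by length, and the annotated transcripts of the 12 leading names are between 349 and 425 bases long.

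**Figure D1:**
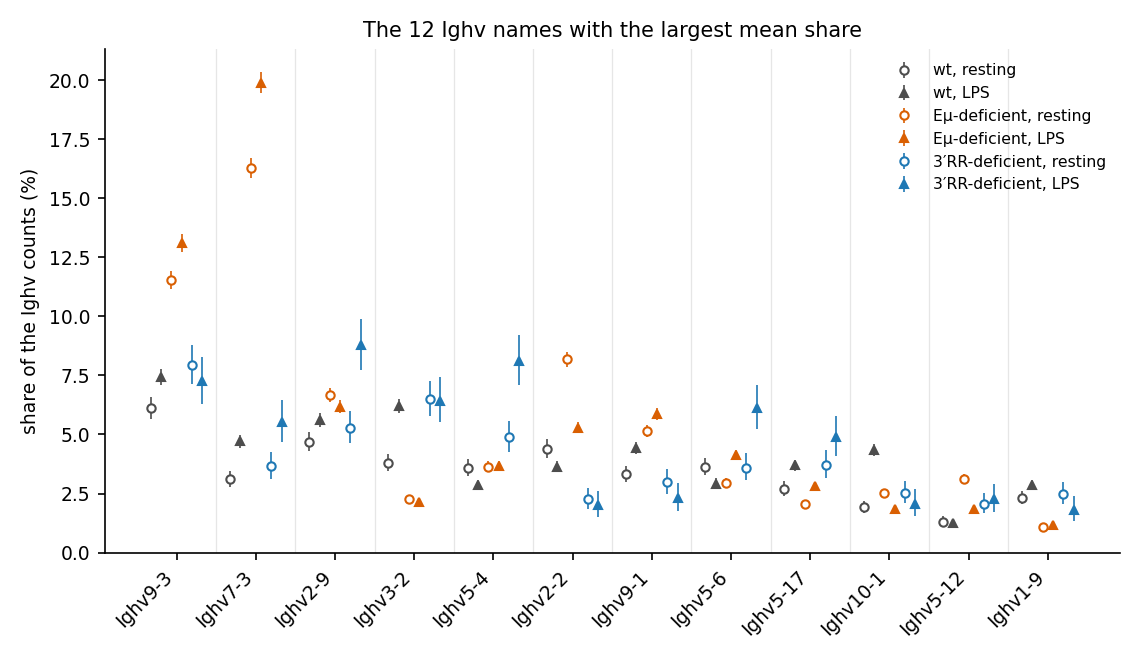
Share of the Ighv counts (y axis, %) of the 12 names with the largest mean share over the 6 libraries (x axis); circles are resting and triangles LPS-stimulated B-cells, colours mark the genotype, and bars are 95% binomial intervals of 1 library. Ighv7-3 reached 16.3% and 19.9% in the Eμ-deficient libraries and stayed between 3.11% and 5.51% in the other 4.

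Summed Ighv RNA was lower without the 3′RR and higher without Eμ in both culture states. Resting wt B-cells had 574 CPM, those without the 3′RR 209 CPM and those without Eμ 2232 CPM. The LPS-stimulated cells had 1183, 304 and 3017 CPM, in the same order. Relative to wt, 3′RR-deficient B-cells thus had a log2 ratio of -1.45 (95% interval -1.51 to -1.40) before and -1.96 (-2.02 to -1.90) after LPS. The corresponding ratios of the Eμ-deficient libraries were 1.96 (1.93 to 1.99) and 1.35 (1.33 to 1.38). In every pair the 2 levels lay further apart than counting error allows, but each level is that of 1 library.

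These differences were tested across all genes in 1 edgeR quasi-likelihood fit to the 6 libraries, in which the effects of genotype and of LPS add up on the log scale. The error of this fit measures how far the libraries depart from such adding up, and no value here measures the spread between mice. The methods describe cells of the same mice before and after stimulation, so that the 2 libraries of a genotype are not independent animals. With the Ighv counts entered as a sum, the model gave a log2 fold change of -1.72 (SE 0.35) for the 3′RR-deficient genotype, which missed the threshold of 0.05 (edgeR quasi-likelihood, adjusted p = 0.110). For the Eμ-deficient genotype the sum gave 1.65 (SE 0.35, adjusted p = 0.0781) and for LPS stimulation 0.68 (SE 0.28, adjusted p = 0.0849). The DESeq2 Wald test on the same table called all 3 terms, with adjusted p-values of 1.67e-05, 5.77e-05 and 0.0275, respectively.

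Naive B-cells splice these VH genes to the constant genes Ighm and Ighd, of which Ighm showed the same order of genotypes and Ighd did not. Ighm, which encodes Cμ, was at 2086, 819 and 5217 CPM in the resting wt, 3′RR-deficient and Eμ-deficient library and at 2977, 1485 and 7370 CPM after LPS. Ighd, which encodes Cδ, was at 392, 198 and 80.1 CPM in the same resting libraries and at 84.5, 65.7 and 30.6 CPM after LPS. The ratio of Ighv to Ighm counts lay between 0.204 and 0.428 over the 6 libraries, at 0.275 in wt and 0.256 without the 3′RR in resting B-cells, and at 0.397 and 0.204 after LPS. Ighj genes, the joining segments, summed to only 4.72 to 46.5 CPM, and 0 of the 4 tested passed the threshold for any of the 3 terms in edgeR or in DESeq2, with 2 lower in 3′RR-deficient and 1 higher in Eμ-deficient B-cells at an unadjusted p under 0.05.

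The variable genes of the κ light chain (Igkv), on a different chromosome, were not lower in 3′RR-deficient B-cells. After LPS, they summed to 1307 CPM in wt, 2248 CPM in 3′RR-deficient and 3981 CPM in Eμ-deficient B-cells, so that the ratio of Ighv to Igkv counts was 0.905, 0.135 and 0.758. For the Eμ term the model called 35 of 100 Igkv names higher, against 0.911% of all genes. For the 3′RR term it called 0 of 100, with 26 higher and 1 lower at an unadjusted p under 0.05 and 3 higher by DESeq2.

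Nearly every Ighv gene that could be tested had less RNA in 3′RR-deficient than in wt B-cells, in all parts of the locus. The model fitted a lower level for 92 of the 93 tested names, with a median log2 fold change of -1.94, against 0.04 over all 14600 genes tested. It called 14 Ighv names lower and 0 higher (edgeR quasi-likelihood, Benjamini-Hochberg adjusted p under 0.05), where 0.507% of all genes tested were called lower and 0.171% higher. At an unadjusted p under 0.05, 78 were lower and 0 higher, and DESeq2 called 39 lower and 0 higher. Shares of all genes at an unadjusted p and by DESeq2 are not given, here or for the other lists and terms. Such counts thus have no background beside them. The count of calls rested on single libraries, since it was 60 without the resting wt, 35 without the resting Eμ-deficient, 34 without the LPS-stimulated Eμ-deficient, 28 without the LPS-stimulated wt, 25 without the resting 3′RR-deficient and 11 without the LPS-stimulated 3′RR-deficient library.

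Within each culture state the same direction was seen. In resting B-cells, 55 of the 79 Ighv names with at least 20 counts over the 2 libraries were more than 2-fold lower in CPM in the 3′RR-deficient library and 1 was more than 2-fold higher, against 3.7% and 5.79% of all genes. After LPS stimulation, 81 of 88 names were more than 2-fold lower and 0 higher, against 12% and 10.8% of all genes. The median log2 ratio of the Ighv names was -1.36 before and -2.25 after LPS. The single name above 2-fold in resting cells was Ighv11-2.

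Among the called genes, Ighv4-1 showed the change most clearly. It had 485 counts in the resting and 347 counts in the LPS-stimulated wt library, against 61 and 13 counts in the 3′RR-deficient libraries, and 555 and 368 counts in the Eμ-deficient libraries. The 3′RR-deficient libraries were thus far below all 4 others. In CPM the 3′RR-deficient library was 9.0-fold lower in resting and 11.4-fold lower in LPS-stimulated B-cells, and the model gave a log2 fold change of -3.27 (SE 0.34, edgeR adjusted p = 0.00324). Its only relative, Ighv4-2, an annotated pseudogene at 96.4% identity, fell with it, by 3.16 on the log2 scale (SE 0.49, edgeR adjusted p = 0.0260).

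Ighv1-64, a distal gene of the large Ighv1 subfamily, had 64 and 149 counts in the resting and LPS-stimulated wt libraries and 5 and 8 counts in the 3′RR-deficient libraries, with a log2 fold change of -3.35 (SE 0.46, edgeR adjusted p = 0.0137). Ighv1-7, at the proximal end of the same subfamily, had 127 and 306 counts in wt and 28 and 11 counts without the 3′RR, with a log2 fold change of -2.90 (SE 0.40, edgeR adjusted p = 0.0137). In both genes the wt and the 3′RR-deficient libraries did not overlap in CPM. Ighv2-9-1 had 36 and 101 counts in wt, and 0 and 1 counts in 3′RR-deficient B-cells. Against a floor of 3 counts its level was at least 13.6-fold lower in the resting library, and the 95% interval of the log2 ratio after LPS was -10.7 to -2.91. The remaining called names, Ighv1-4, Ighv1-53, Ighv1-54, Ighv2-2, Ighv2-6, Ighv3-6, Ighv5-9, Ighv9-1 and Ighv14-3, fell by between 2.12 and 2.89 on the log2 scale. Of the 14 called names, 9 were called without each of the 6 libraries in turn.

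By subfamily, 3 of the 15 tested were called lower and 0 higher in 3′RR-deficient B-cells. Ighv4 changed most, with a log2 fold change of -3.25 (SE 0.33, edgeR adjusted p = 0.00310), followed by Ighv1 with -2.20 (SE 0.33, adjusted p = 0.0220) and Ighv6 with -1.95 (SE 0.32, adjusted p = 0.0348). The number called was 1 without the LPS-stimulated 3′RR-deficient, 6 without the resting Eμ-deficient or the LPS-stimulated wt, 7 without the LPS-stimulated Eμ-deficient and 14 without the resting wt library. In 5 of the 43 tested Ighv1 names the single-gene call was also made, and all 43 were fitted lower, between -3.95 and -0.82. In Ighv5, 7 of the 8 tested names were fitted lower and 1 higher, at 0.01, and 1 was called.

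Because the drop was shared by most genes, the usage of the genes relative to one another changed less than their level. In the share of the Ighv counts, 8 of 79 names were more than 2-fold higher and 14 more than 2-fold lower in resting 3′RR-deficient than in wt B-cells, and 7 and 19 of 88 after LPS. Only 3 names, Ighv5-15, Ighv14-1 and Ighv14-4, were more than 2-fold higher in share in both states, and 5 names, Ighv1-5, Ighv1-53, Ighv1-64, Ighv2-9-1 and Ighv4-1, more than 2-fold lower. The Ighv1 share was 28.1% in wt and 20.7% in 3′RR-deficient resting B-cells, and 23.8% and 16.1% after LPS. Of the Ighv1 counts of wt, Ighv1-67 alone held 523 of 2928 in resting and 168 of 5883 in LPS-stimulated B-cells. The Ighv5 share was 13.4% and 17.3% in resting B-cells and 13.1% and 25.4% after LPS. No test of the shares was run.

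Ighv14-1 was the main exception to the drop among the more abundant genes. It had 120 counts in the resting and 157 in the LPS-stimulated wt library, and 128 and 67 counts in the 3′RR-deficient libraries, which are 6.60, 7.5, 6.22 and 7.53 CPM. Its log2 ratio of CPM was -0.09 (95% interval -0.46 to 0.29) in resting and 0.00 (-0.43 to 0.43) in LPS-stimulated B-cells, and its share of the Ighv counts was accordingly 2.58-fold and 3.91-fold higher. Ighv5-4 came next among the leading genes, with 20.5 and 10.2 CPM in the resting and 33.8 and 24.6 CPM in the LPS-stimulated pair, and its share after LPS was 8.10% against 2.86% in wt.

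Ighv11-2 went in opposite directions in the 2 states. Resting B-cells held 46 counts in wt and 121 counts without the 3′RR, for a log2 ratio of CPM of 1.22 (95% interval 0.72 to 1.74), and 108 and 16 counts after LPS, a log2 ratio of -1.52 (-2.38 to -0.76). Ighv11-2 is known from the restricted heavy chains of B1 cells, a B-cell subset that is frequent in body cavities and carries CD43. CD43 is the target of the depletion, and how far the depletion removed these cells was not measured. The B1 markers Zbtb32, Bhlhe41, Cd5 and Ctla4 summed to 26 CPM in the resting wt and 53.1 CPM in the resting 3′RR-deficient library, and to 108 and 162 CPM after LPS. Most of the resting sums was Bhlhe41 (17.4 and 41.9 CPM), with Cd5 at only 2.37 and 3.74 CPM, and most of the sums after LPS was Zbtb32 (80.4 and 122 CPM). None of the 4 passed the threshold for the 3′RR term in edgeR or DESeq2 (1 was higher at an unadjusted p under 0.05), and their part in the result was not tested. Ighv11-1 shares 98.9% of its sequence with Ighv11-2, so that both names may hold reads of either gene.

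**Figure D2:**
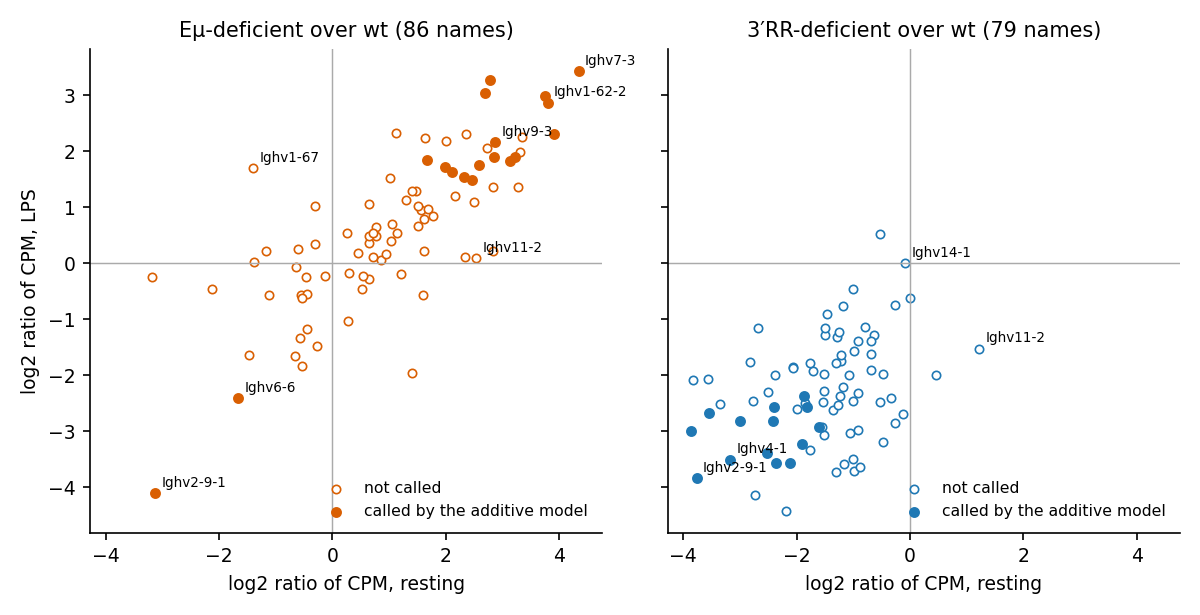
Log2 ratio of CPM to wt in resting (x axis) and LPS-stimulated (y axis) B-cells for each Ighv name with at least 20 counts in both pairs of libraries, 86 names for Eμ-deficient (left) and 79 for 3′RR-deficient (right), with libraries under 3 counts set to 3; filled points were called by the additive model. Most 3′RR-deficient points lie below 0 on both axes, whereas the Eμ-deficient points spread on both sides of 0, from Ighv2-9-1 to Ighv7-3.

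In Eμ-deficient B-cells the Ighv genes did not move together, and a few genes took over the Ighv RNA. The model fitted a higher level for 66 and a lower level for 27 of the 93 tested names, with a median log2 fold change of 0.70, against -0.01 over all genes. It called 16 names higher and 2 lower (edgeR quasi-likelihood, Benjamini-Hochberg adjusted p under 0.05), where 0.911% of all genes tested were called higher and 0.253% lower. DESeq2 called 26 higher and 2 lower. The edgeR count, 18 in all, was 31 without either 3′RR-deficient library and 37 without the LPS-stimulated wt library, and lay between 16 and 27 without each of the other 3.

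The split was also seen within each culture state. In resting B-cells, 47 of 86 names were more than 2-fold higher and 9 more than 2-fold lower in CPM than in wt, against 12.4% and 5.25% of all genes. After LPS, 36 of 94 names were higher and 12 lower, against 7.64% and 3.54% of all genes. The median of the names was 1.14 before and 0.48 after LPS, as a log2 ratio. Both the higher and the lower shares thus exceeded those of all genes in both states.

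Ighv7-3, of the 4-name Ighv7 subfamily, rose most. It had 324 counts in the resting and 1165 in the LPS-stimulated wt library (17.8 and 55.7 CPM), and 4804 and 6408 counts in the Eμ-deficient libraries (363 and 600.2 CPM). The 3′RR-deficient libraries held 158 and 149 counts (7.68 and 16.7 CPM). Both Eμ-deficient libraries were thus far above the other 4, 20.4-fold above wt in resting and 10.8-fold in LPS-stimulated B-cells, and the model gave a log2 fold change of 3.88 (SE 0.37, edgeR adjusted p = 0.00277). Its share of the Ighv counts was 3.11% and 4.71% in wt and 16.3% (95% interval 15.9 to 16.7%) and 19.9% (19.5 to 20.3%) in Eμ-deficient B-cells. Without Ighv7-3, the Ighv sum was still 556, 1868 and 202 CPM in the resting wt, Eμ-deficient and 3′RR-deficient library, and 1127, 2417 and 287 CPM after LPS.

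Ighv9-3 was the second gene of the Eμ-deficient libraries. Its counts were 638 and 1836 in wt and 3402 and 4219 in Eμ-deficient B-cells, and its share was 6.12% and 7.42% in wt and 11.5% and 13.1% in Eμ-deficient B-cells. The model gave a log2 fold change of 2.5 (SE 0.34, edgeR adjusted p = 0.0121). Ighv14-1 had 566 and 659 counts in the Eμ-deficient libraries against 120 and 157 in wt, a log2 fold change of 2.87 (SE 0.29, edgeR adjusted p = 0.00392). Ighv1-62-2 held 28 and 86 counts in wt and 283 and 321 in Eμ-deficient B-cells, and Ighv1-71, which shares most of its sequence with it, held 14 and 39, and 138 and 158. Each of the 2 names had a log2 fold change of 3.29 (edgeR adjusted p = 0.00626 and 0.0141). Ighv5-15 and Ighv12-2, an annotated pseudogene, rose by 3.09 and 3.04 on the log2 scale from few counts in wt (edgeR adjusted p = 0.0155 and 0.0240). The other called names that were higher, Ighv2-2, Ighv2-5, Ighv2-9, Ighv3-8, Ighv5-4, Ighv5-6, Ighv5-12, Ighv8-8 and Ighv9-1, had log2 fold changes between 1.76 and 2.57.

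The 2 genes called lower, Ighv6-6 and Ighv2-9-1, were lower in their level and not only in their share. Ighv6-6 had 243 and 666 counts in wt, 56 and 64 in Eμ-deficient and 66 and 79 in 3′RR-deficient B-cells. In CPM the Eμ-deficient library was 3.15-fold lower in resting and 5.31-fold lower in LPS-stimulated B-cells, with a log2 fold change of -2.02 (SE 0.36, edgeR adjusted p = 0.0325). Its share of the Ighv counts was 2.33% and 2.69% in wt but 0.190% and 0.199% in Eμ-deficient B-cells, whereas it was 1.53% and 2.92% in 3′RR-deficient B-cells. Ighv2-9-1 had 0 counts in both Eμ-deficient libraries, at least 8.72-fold lower than wt in resting and at least 17.2-fold lower in LPS-stimulated B-cells against a floor of 3 counts (edgeR adjusted p = 0.0212). Its fitted fold change depends on the prior count and is not given. Ighv12-3 had 16 and 53 counts in wt and 2 and 0 in Eμ-deficient B-cells and was not called. Of the 18 called names, 11 were called without each of the 6 libraries in turn.

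By subfamily, Ighv7, Ighv9, Ighv14 and Ighv5 were called higher and none lower in Eμ-deficient B-cells. Ighv7 had a log2 fold change of 3.73 (SE 0.36, edgeR adjusted p = 0.00336), Ighv9 of 2.34 (adjusted p = 0.0228), Ighv14 of 2.06 (adjusted p = 0.0189) and Ighv5 of 1.72 (adjusted p = 0.0420). Ighv6 stood at -1.57 and missed the threshold (adjusted p = 0.0620), and DESeq2 called 6 subfamilies higher and 1 lower. The edgeR count was 2 without the resting Eμ-deficient, 7 without the resting 3′RR-deficient and 10 without the LPS-stimulated wt library.

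The 3 tested names of Ighv7 were all fitted higher, between 2.23 and 3.88, as were the 4 of Ighv9, between 0.33 and 2.5, and the 4 of Ighv14, between 1.64 and 2.87. The 3 tested names of Ighv6 were all fitted lower, between -2.02 and -0.51. In Ighv2 and Ighv1 the members were split, with 4 of 8 and 31 of 43 fitted higher. The members of Ighv7 and of Ighv6 thus each lay on 1 side of wt, although Ighv7-3 held most of the Ighv7 counts.

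**Figure D3:**
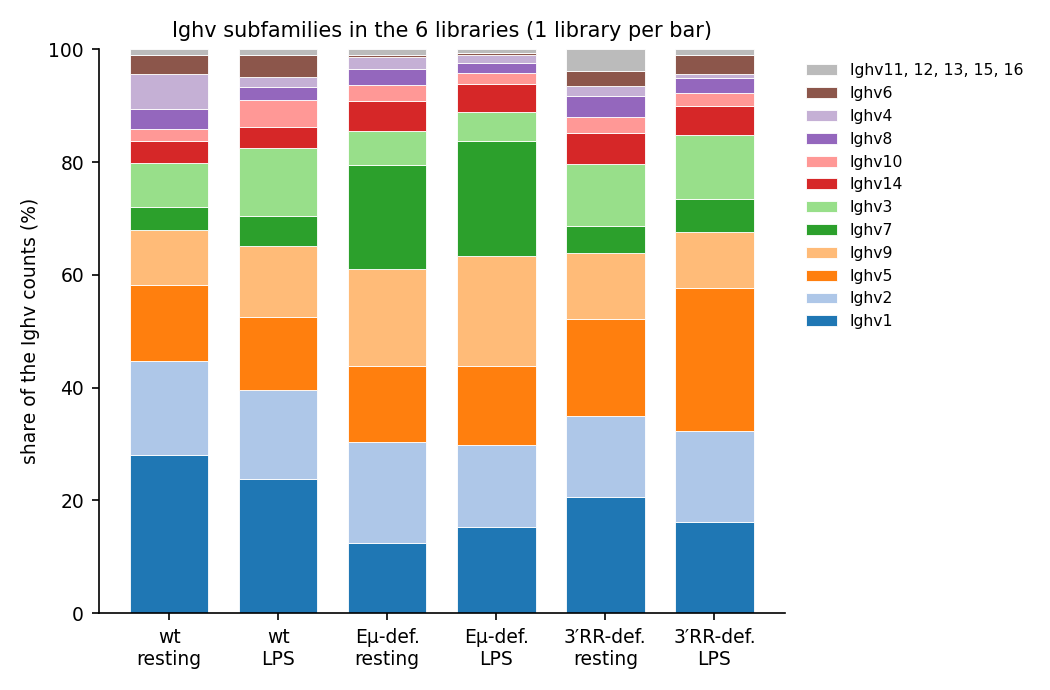
Share of the Ighv counts (y axis, %) of each Ighv subfamily in the 6 libraries (x axis), 1 stacked bar per library, with 5 small subfamilies joined. Ighv7 took 18.5% and 20.5% in the Eμ-deficient libraries and between 3.99% and 5.77% in the others, and Ighv1 took 28.1% in resting wt and 12.5% in resting Eμ-deficient B-cells.

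The subfamily shares of Eμ-deficient B-cells were shifted in the same way in both states. Ighv7 took 3.99% and 5.29% of the Ighv counts in wt and 18.5% and 20.5% in Eμ-deficient B-cells, log2 ratios of the share of 2.21 (95% interval 2.07 to 2.36) and 1.96 (1.87 to 2.04). Ighv9 took 9.75% and 12.6% in wt and 17.1% and 19.5% in Eμ-deficient B-cells. Ighv6 took 3.25% and 3.85% in wt and 0.370% and 0.388% in Eμ-deficient B-cells, and Ighv1 28.1% and 23.8% against 12.5% and 15.3%. The shares of Ighv2 and Ighv5 differed from wt by at most 1.08-fold.

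At the level of single genes, 39 of 86 names had a more than 2-fold lower share in resting Eμ-deficient than in wt B-cells and 9 a higher one, and after LPS 43 of 94 were lower and 6 higher. Of the 86 names with enough counts in both pairs, 30 were more than 2-fold lower in share in both states, 3 (Ighv1-62-2, Ighv1-71 and Ighv7-3) were more than 2-fold higher in both and 0 changed 2-fold in opposite directions. The direction was the same in both states for 76 of the 86. The corresponding number in 3′RR-deficient B-cells was 49 of 79. Since the methods describe both states as cells of the same mice, this is not a replicate.

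Markers of other cells moved with the Eμ-deficient libraries. Plasma cell markers (Prdm1, Xbp1, Jchain, Sdc1, Irf4 and Mzb1) summed to 598 CPM in the resting wt and 2324 CPM in the resting Eμ-deficient library, and to 819 and 1991 CPM after LPS. Jchain, which joins secreted antibodies into polymers, made up most of this, with 113 and 1734 CPM in the resting and 96.1 and 803 CPM in the LPS-stimulated pair, and was the 1 of 6 markers called higher by edgeR, while DESeq2 called 3. Plasma cells carry CD43, the target of the depletion, and how far the depletion removed them was not measured. Erythroid markers were at 2576 and 14533 CPM in the resting and 40.3 and 545 CPM in the LPS-stimulated pair, with 4 of 4 called higher. Of all genes tested, edgeR called 0.911% higher and 0.253% lower for the Eμ term. Of the 3 follicular B-cell markers, Ighd was called lower (log2 fold change -1.89, edgeR adjusted p = 0.0302), whereas Fcer2a (-0.83, adjusted p = 0.387) and Cr2 (0.26, adjusted p = 0.989) were not called. Cr2 is also on the list of 7 markers of marginal zone B-cells, another subset of the spleen. That list summed to 808 and 1202 CPM in the resting and 274 and 289 CPM in the LPS-stimulated pair, with a median log2 fold change of 0.51. Of its markers, 0 were called by edgeR or DESeq2 and 2 were higher at an unadjusted p under 0.05. Myeloid markers were at 134 and 315 CPM and T-cell markers at 14.1 and 30.9 CPM in the resting pair, and at 14.0 and 25.0 CPM and at 0.335 and 3.56 CPM after LPS. The part of these cells in the Ighv result was not tested.

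The Ighv RNA of Eμ-deficient B-cells was concentrated on fewer genes. In resting B-cells, 50% of the Ighv counts came from 13 names in the wt, 13 in the 3′RR-deficient and 6 in the Eμ-deficient library, and after LPS from 12, 8 and 5 names. The 10 leading names of each library took 42.3%, 44.3% and 62.9% of the counts in resting and 45.8%, 55.5% and 65.1% in LPS-stimulated B-cells of wt, 3′RR-deficient and Eμ-deficient mice. The effective number of names, which is the number of equally used names that would give the same evenness, was 54.7, 51.8 and 29.5 in resting and 49.7, 39.5 and 27.9 in LPS-stimulated B-cells. The resting 3′RR-deficient library was thus about as even as wt. The number of names with at least 10 counts was 88, 65 and 81 in resting and 95, 47 and 86 in LPS-stimulated B-cells.

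**Figure D4:**
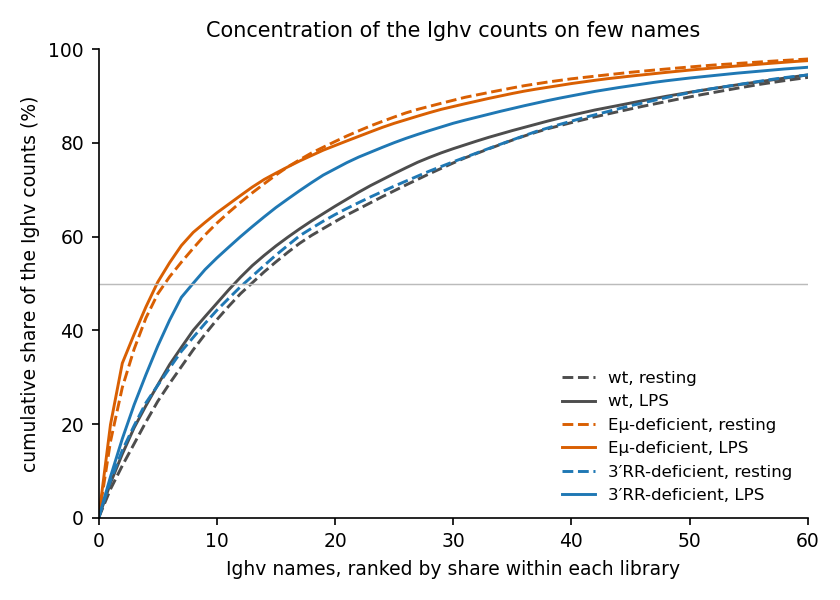
Cumulative share of the Ighv counts (y axis, %) over the Ighv names ranked by their share within each of the 6 libraries (x axis, first 60 ranks), with dashed lines for resting and full lines for LPS-stimulated B-cells. The Eμ-deficient curves cross 50% at 6 and 5 names, the wt curves at 13 and 12.

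Ighv RNA was higher after LPS stimulation in all 3 genotypes, while few genes differed by 2-fold in their share in wt B-cells. The Ighv sum was 2.06-fold higher after LPS in wt, 1.35-fold in Eμ-deficient and 1.45-fold in 3′RR-deficient B-cells. The log2 ratio of LPS-stimulated to resting cells had an SD among the spike-ins of 0.784, 0.135 and 0.633, respectively. Above the range of the spike-ins lay 3 of 94 Ighv names in wt, 58 of 83 in Eμ-deficient and 9 of 59 in 3′RR-deficient B-cells. The wt sum, at a log2 ratio of 1.04, lay within the spike-in range of -0.69 to 2.28. The model fitted a higher level for 83 of the 93 tested names, with a median of 0.69, against -0.07 over all genes. It called 19 names higher and 0 lower (edgeR quasi-likelihood, Benjamini-Hochberg adjusted p under 0.05), where 19.7% of all genes tested were called higher and 21.1% lower. The share of names called higher was thus near that of all genes. At an unadjusted p under 0.05, 30 were higher and 1 lower, and DESeq2 called 20 higher and 0 lower. Without genotype as a term in the model, 0 were called in either direction.

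Ighv7-3 rose from 17.8 to 55.7 CPM in wt, from 363 to 600.2 CPM in Eμ-deficient and from 7.68 to 16.7 CPM without the 3′RR, with a log2 fold change of 1.16 (SE 0.28, edgeR adjusted p = 0.00945). Ighv1-82, a distal gene, rose from 2.53 to 5.78, from 2.04 to 7.31 and from 0.486 to 1.46 CPM, respectively, a log2 fold change of 1.52 (SE 0.36, edgeR adjusted p = 0.00910). Ighv1-14, an annotated pseudogene, and Ighv5-9 rose by 1.27 and 1.30 on the log2 scale (edgeR adjusted p = 0.00643 and 0.0180). Ighv3-5 had the largest fitted change, 2.30 (SE 0.72, edgeR adjusted p = 0.0298), but held between 1 and 25 counts per library. Each of these 5 genes was higher after LPS in every genotype, which was a condition for naming them.

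By subfamily, Ighv5 (log2 fold change 0.86, edgeR adjusted p = 0.0239), Ighv6 (0.92, adjusted p = 0.0189), Ighv7 (0.95, adjusted p = 0.0215) and Ighv12 (1.15, adjusted p = 0.0277) were called higher after LPS and none lower. They are 4 of the 15 tested, where 19.7% of all genes tested were called higher and 21.1% lower. Only 1 subfamily was called without the 3′RR-deficient pair of libraries. Ighv4 was not called, with 36.3 CPM before and 20.9 CPM after LPS in wt, 49.8 and 43.2 CPM in Eμ-deficient and 3.79 and 2.13 CPM in 3′RR-deficient B-cells.

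In the share of the Ighv counts, 5 of 94 names were more than 2-fold higher and 5 more than 2-fold lower after LPS in wt, 6 and 4 of 83 in Eμ-deficient, and 2 and 12 of 59 in 3′RR-deficient B-cells. In wt, Ighv1-67 took 5.02% before and 0.679% after LPS (523 and 168 counts). Ighv10-1 took 1.92% and 4.33%, and Ighv3-2, an annotated pseudogene, 3.81% and 6.19%. The part of 2 usage profiles that is shared, the sum over names of the smaller of both shares, was 82.1% between the wt libraries, 87.8% between the Eμ-deficient and 80.1% between the 3′RR-deficient libraries. Between wt and mutant it was 78.2% and 76.8% for 3′RR-deficient and 63.2% and 67.6% for Eμ-deficient B-cells, in resting and LPS-stimulated cells. The profile of every mutant library was thus further from the wt library of its own state than the wt libraries were from each other. The distance was larger for the Eμ-deficient than for the 3′RR-deficient libraries.

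In both mutants the genes nearest to DH gave a larger part of the Ighv RNA than in wt. The Ighv region was divided into 4 parts of equal length, from the end nearest to the DH genes (53 names, 31 of them Ighv2 or Ighv5) to the distal end (34 names). The part nearest to DH gave 59.5% of the Ighv counts in resting wt and 78.1% in resting Eμ-deficient B-cells, and 60.4% and 78.1% after LPS. In 3′RR-deficient B-cells it gave 66.3% and 72.9%. The most distal part gave 12.1% in resting wt, 4.79% in resting Eμ-deficient and 6.76% in resting 3′RR-deficient B-cells, and 7.08%, 5.64% and 4.29% after LPS. In wt, Ighv1-67 alone held 523 of the 1261 counts of this part in resting and 168 of 1752 in LPS-stimulated B-cells. The resting wt value of this part thus leaned on 1 name in 1 library. Ighv7-3 itself lies in the part nearest to DH.

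In the model, 12 of the 32 tested names nearest to DH were called higher and 1 lower in Eμ-deficient B-cells, with a median log2 fold change of 1.84. The next part had 1 higher and 1 lower of 27 tested names and a median of -0.14, and the 2 distal parts had 1 of 16 and 2 of 18 called higher and medians of 0.68 and 0.73. Of the 30 names that lost more than 2-fold in share in both states, 8, 14, 4 and 4 lay in the 4 parts. In 3′RR-deficient B-cells the medians were -1.52, -1.86, -2.11 and -2.24 from the DH end outward, with 8, 3, 2 and 1 names called lower, so that every part was well below the all-gene median of 0.04. Differences between the parts were not tested. At the ends of the locus, Ighv5-2, the nearest gene to DH with at least 100 counts, had 57 and 98 counts in wt, 15 and 16 in Eμ-deficient and 40 and 16 in 3′RR-deficient B-cells, and Ighv1-85, the most distal, had 54 and 90, 47 and 67, and 9 and 7, respectively.

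**Figure D5:**
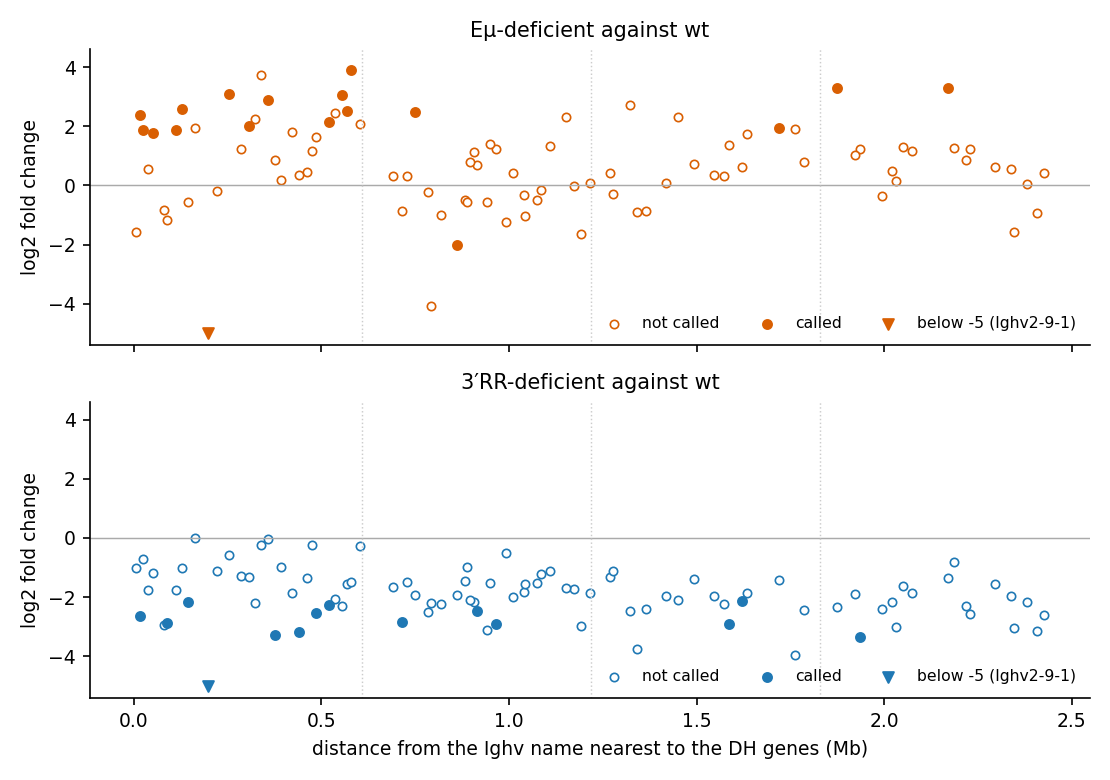
Log2 fold change of each tested Ighv name in the additive model (y axis) against its distance from the Ighv name nearest to the DH genes (x axis, Mb), for Eμ-deficient (top) and 3′RR-deficient (bottom) against wt; filled points were called, triangles mark Ighv2-9-1 below the axis, and dotted lines part the region into 4 equal lengths. Most of the called rises in Eμ-deficient B-cells, 12 of 16, lie in the part nearest to DH, while 92 of the 93 3′RR-deficient values lie below 0.

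Genes of factors that bind VH promoters or the VH region were measured beside them. Of the 14 tested (Pou2f1, Pou2f2 and Pou2af1 of the octamer pathway, and Pax5, Ebf1, Tcf3, Spi1, Ikzf1, Yy1, Ctcf, Rad21, Bach2, Irf4 and Irf8), 0 passed the threshold for either genotype in edgeR or DESeq2, and 1 was lower in Eμ-deficient B-cells at an unadjusted p under 0.05. Their median log2 fold change was 0.07 in 3′RR-deficient and -0.23 in Eμ-deficient B-cells. After LPS, 3 of the 14 were called higher and 2 lower, which is near the 19.7% and 21.1% of all genes.

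The annotated pseudogenes were a small part of the Ighv RNA, except for a few. Of the 70, 7 had enough counts to be tested. All 70 together took 7.89%, 3.51% and 9.66% of the Ighv counts in the resting wt, Eμ-deficient and 3′RR-deficient library and 9.05%, 3.60% and 9.36% after LPS. Ighv3-2 had the largest part of this, with 397 and 1531 counts in wt, 672 and 685 in Eμ-deficient and 279 and 174 in 3′RR-deficient B-cells. In resting B-cells its level was 2.33-fold higher in the Eμ-deficient than in the wt library, and in LPS-stimulated B-cells it was 1.14-fold lower. The reference is that of C57BL/6J mice, and whether these names are pseudogenes in 129 mice is not known here.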

How the data were processed

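The authors depleted ribosomal RNA, made stranded libraries, sequenced paired reads of 150 nt, aligned them to mm10 with STAR 2.4.0a and counted fragments per gene name with featureCounts (Subread 1.4.6-p1, Ensembl release 77, strand option 1, with reads that map to several places). The deposited file holds the counts as they came from this step, not normalized. The 92 spike-in names, with between 4.75% and 7.10% of the counts, name no gene and were left out. Reads of 129 mice were counted against a C57BL/6J reference. Of 30 genes whose exons lie within exons of a protein-coding gene on the opposite strand, 30 had fewer counts per base than the outer gene, so that the counts hold the sense strand.

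Members and lists were chosen with earlier results of these data known. The edgeR 4.0.16 quasi-likelihood test (R 4.3.3, TMM scaling, Benjamini-Hochberg over all genes tested, threshold 0.05) took in genes that reached 10 counts in 2 or more libraries, with terms for genotype and for LPS that add up, and Ighv names were entered singly, as 15 subfamilies or as 1 sum. Shares carry exact Clopper-Pearson 95% intervals and ratios exact conditional binomial intervals (scipy 1.17.1), with a floor of 3 counts. On simulated data for 14600 genes (Eμ-deficient against wt, 200 genes changed by a log2 of 2), 83% of the changed genes were recovered, and unchanged genes made up 2.92% of the calls. The simulation gave every gene a dispersion of 0.05 and had no LPS effect, so that these rates need not hold for the real libraries. Named are the 12 names with the largest mean share, the 3 largest rises and falls in share of each mutant and wt pair, up to 5 called rises and falls of each model term, the outermost names with at least 100 counts, and names at 0 in 1 library with at least 50 counts in another. Other called names are listed for completeness and were chosen after their values were seen. Alternatives were other library scalings, removal of each library's trend on GC content, DESeq2 1.42.0, other filters on low counts, fits to fewer libraries and other Ighv sums. Leaving out single libraries was added after the data were seen. The summed level of the B-cell marker list is not reported here.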

Additional observations from a re-analysis of the deposited data

Results flagged for a closer look

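Among the named genes and the subfamilies, 5 differed from wt in opposite directions in the 2 culture states with both 95% intervals clear of 0. Each rests on 1 library per group, and the difference between the states was not tested. Ighv1-67 was lower in resting Eμ-deficient than in resting wt B-cells (145 and 523 counts, a log2 ratio of CPM of -1.39) and higher after LPS (278 and 168 counts, 1.70), a difference between the states of 3.09. Ighv3-2 in Eμ-deficient B-cells had 672 counts against 397 in resting (1.22) and 685 against 1531 after LPS (-0.19), a difference of -1.41. The Ighv13 subfamily in Eμ-deficient B-cells had 23 counts against 13 (1.28) and 5 against 38 (-1.96), a difference of -3.24. Ighv11-2 in 3′RR-deficient B-cells had 121 counts against 46 in resting (1.22) and 16 against 108 after LPS (-1.52), a difference of -2.74. The Ighv11 subfamily, of which Ighv11-2 holds most counts, gave 1.15 and -1.47, a difference of -2.62.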

How the results depend on the processing

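No alternative turned the direction of a result that was called. In 3′RR-deficient B-cells, the number of Ighv names called, 14, was 39 with DESeq2, 55 without a filter on low counts and 36 in a fit to the 2 genotypes compared, and between 11 and 60 without single libraries. The 3 subfamilies became 10, 11 and 8, and between 1 and 14. The log2 fold change of the sum, -1.72, was called with DESeq2 (-1.74) and without a filter (-1.78), and lay between -2.04 and -1.43 without single libraries. In Eμ-deficient B-cells, the 18 names became 28, 32 and 31, and between 16 and 37 without single libraries. The 4 subfamilies became 7 with DESeq2 and without a filter, and between 2 and 10 without single libraries. The sum, 1.65, was called with DESeq2 (1.63) and without a filter (1.58), and lay between 1.36 and 1.93. For LPS, 0 names and 0 subfamilies were called without the genotype term, and between 15 and 18 names without a genotype. The 4 subfamilies became 7 with the GC trend removed or without a filter, and between 1 and 5 without a genotype, and the sum was called with DESeq2 (0.68). Scaling by the total count moved the median LPS change of all genes from -0.07 to -0.16 and left 14 of 19 names called. Leaving aside single libraries, all 14 and all 18 names remained called under every alternative in which they were tested, and 0 of the 19 for LPS. The cause of these changes was not tested. The LPS term compares the 2 states within each genotype, and the labels give no replicate numbers for any other pairing. Names with few counts, most of all in 3′RR-deficient B-cells after LPS, are limited by depth.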

Other observations

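Outside the Ighv genes, the 5 genes whose log2 CPM followed that of the Ighv sum most closely over the 6 libraries, among 5525 genes with a mean of at least 20 CPM, were Mdfic (Pearson r = 0.988), Ighm (0.988), Ube2j1 (0.975), Asun (0.970) and Slc25a46 (0.967). With 6 points, which include both states of each genotype, these values are a description. Mdfic was at 24.3, 20 and 35.5 CPM in the resting wt, 3′RR-deficient and Eμ-deficient library and at 31.9, 23.4 and 39.4 CPM after LPS, a much narrower range than that of Ighm.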
